A study of Rattus norvegicus with 8 samples.

Results

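The stefin and cystatin A genes Csta, Stfa2, Stfa2l3 and Stfa3 were followed across 8 expression arrays of rat oesophagus. They are 4 of the 22093 genes that the array measured through a probe set with a single platform symbol, and each was read by 1 probe set. They were chosen by their symbols and from earlier results on the same arrays, in which their within-rat differences between neoplasia and adjacent normal tissue were already known, so their values in every comparison here are a description and carry no test. Every rat was injected under the skin with NMBA (N-nitrosomethylbenzylamine), a nitrosamine carcinogenic to oesophageal epithelium. The dose was 0.35 mg/kg, with 3 injections weekly over 5 weeks, and the rats were killed at week 25. The diet contained normal riboflavin (RcN+, 2 rats) or was deficient in riboflavin (R0N+, 2 rats), riboflavin being the vitamin from which the flavin cofactors are made. Each rat gave 1 array of epithelial neoplasia and 1 of adjacent normal tissue. No group was free of NMBA, so the adjacent normal tissue had been exposed as well. The labels name no strain, sex or age. The tissue had been fixed in paraformaldehyde and embedded in paraffin before the regions were isolated.

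Stefins, or type 1 cystatins, are small cytosolic proteins without a signal peptide or disulphide bonds. They block papain-like cysteine proteases, chiefly the lysosomal cathepsins, by filling the active-site cleft as a reversible wedge. Cystatin A is abundant in stratified squamous epithelium, where it is made in the suprabasal layers and becomes part of the cornified envelope. In rodents the cystatin A locus has expanded into a cluster of stefin A genes, and in mouse several of these are also made by neutrophils.

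The 4 genes lie in a single cluster on chromosome 11. In the RefSeq annotation of build GRCr8 the order of its cystatin genes is Stfa3, Csta3, Stfa2l1, Cstdc4, Stfa2l2, Stfa2, Stfa2l3, Stfa3l1 and Csta, with the calcium-sensing receptor gene Casr next to Stfa3. The promoter windows of all 4 members were found in RefSeq (build GRCr8) and are printed because they show how closely the genes are related. Each window runs from 250 bases before to 50 bases after the annotated start, all on the plus strand, at chr11:78125563-78125862 for Csta, chr11:77858820-77859119 for Stfa3, chr11:78049536-78049835 for Stfa2 and chr11:78093485-78093784 for Stfa2l3. Capitals mark the longest run of letters that all 4 windows share and the hexamer TTTAAA.
Csta: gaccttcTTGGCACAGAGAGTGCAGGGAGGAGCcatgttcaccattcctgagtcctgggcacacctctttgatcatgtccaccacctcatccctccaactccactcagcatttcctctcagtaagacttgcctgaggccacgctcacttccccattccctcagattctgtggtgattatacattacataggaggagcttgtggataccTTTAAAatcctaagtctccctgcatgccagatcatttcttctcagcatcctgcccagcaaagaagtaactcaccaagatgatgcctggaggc
Stfa3: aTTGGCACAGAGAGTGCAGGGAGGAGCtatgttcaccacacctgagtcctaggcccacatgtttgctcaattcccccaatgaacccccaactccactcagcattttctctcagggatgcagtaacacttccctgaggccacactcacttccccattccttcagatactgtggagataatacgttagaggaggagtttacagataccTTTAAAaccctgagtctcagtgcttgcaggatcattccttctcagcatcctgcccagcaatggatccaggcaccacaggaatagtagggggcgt
Stfa2: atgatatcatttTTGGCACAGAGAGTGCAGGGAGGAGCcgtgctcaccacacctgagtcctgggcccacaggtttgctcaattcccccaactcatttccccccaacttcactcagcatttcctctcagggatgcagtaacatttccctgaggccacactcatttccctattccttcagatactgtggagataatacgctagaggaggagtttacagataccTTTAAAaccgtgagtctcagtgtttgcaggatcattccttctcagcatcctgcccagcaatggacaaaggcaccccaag
Stfa2l3: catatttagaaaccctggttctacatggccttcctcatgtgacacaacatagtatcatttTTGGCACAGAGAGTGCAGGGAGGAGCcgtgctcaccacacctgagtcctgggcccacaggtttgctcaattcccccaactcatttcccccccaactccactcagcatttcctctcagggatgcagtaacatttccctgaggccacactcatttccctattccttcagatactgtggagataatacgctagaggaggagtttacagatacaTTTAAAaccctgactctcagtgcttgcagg
The shared run is 26 bases long and was defined as what the 4 windows have in common, so its presence in them is no finding. Of 27457 promoter windows searched on both strands 4, or 0.0146%, held it without a change. The window of the neighbouring Stfa2l2, which is no member, held it with 1 letter changed. Compared without gaps, the closest stretch in that of Csta3 had 6 letters changed. With a short gap allowed, the Csta3 window holds a much closer copy, so near copies of the run are not particular to the members. The shared run begins 243 bases before the start in Csta, 249 in Stfa3, 238 in Stfa2 and 190 in Stfa2l3. The hexamer TTTAAA, which reads alike on both strands, was held by 13.5% of all windows. It begins 42, 44 and 29 bases before the start in Csta, Stfa3 and Stfa2, and 20 bases after it in Stfa2l3. It also occurs in the windows of the neighbours Csta3 and Stfa2l1, 205 and 58 bases before the start, and of Stfa2l2, 11 bases after it, so it is not particular to the members. From the first letter of the shared run to that of the hexamer the distance is 201 bases in Csta, 205 in Stfa3, 209 in Stfa2 and 210 in Stfa2l3. The canonical TATA letters (TATAAA, in 14.3% of windows) and the AP-1 letters (TGANTCA, in 7.33%) were in none of the 4 windows on either strand.

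**Figure D1:**
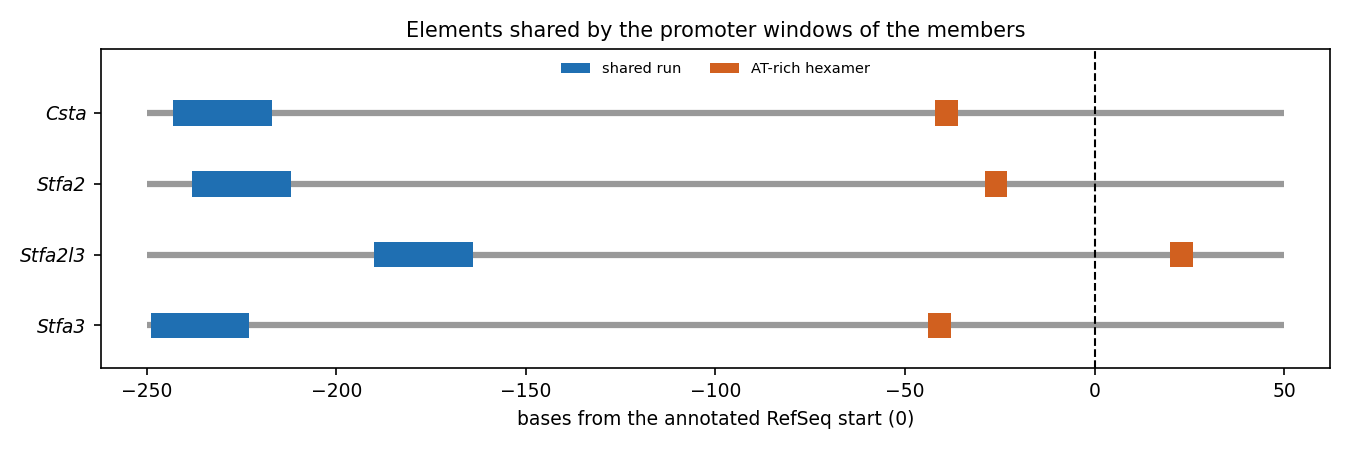
Position of the shared 26-base run (blue) and of the hexamer TTTAAA (orange) in the promoter window of each member, in bases from the annotated RefSeq start (dashed line at 0, grey line the window). The spacing of the elements is 201 to 210 bases in all 4 windows, and in Stfa2l3 both lie further downstream relative to the annotated start.

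Stfa2 and Stfa2l3 were the closest relatives, with 97.2% identical letters over 251 aligned bases and an unbroken identical run of 112 bases. Their windows are offset by 49 bases, so the annotated start of Stfa2l3 lies further upstream in the same sequence. Stfa3 matched Stfa2 at 92.3% and Stfa2l3 at 93.2%, whereas Csta matched the other 3 members at 81.4% to 81.6%. The neighbour Csta3, which is no member, matched Stfa2 at 95.1% (183 aligned bases), Stfa3 at 92.3% and Csta at 84.5% (168 each). Stfa2l2 matched Stfa2l3 at 86.6%. Such likeness is thus not particular to the members. These windows lie mostly before the start, and neither transcript nor probe sequences were compared. Each gene has its own probe set, but probe sets of close relatives may pick up each other's transcripts. Whether they do was not tested, so the levels of Stfa2 and Stfa2l3 are uncertain as levels of single genes.

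The values are log2 signals per probe set made by the authors with RMA (robust multi-array average), and the table stops at a maximum of 19.93, which is treated here as a ceiling. Levels of different probe sets cannot be compared on this scale, so each gene is read against itself. As a quality measure, the separation of positive from negative control probe sets (area under the curve) ran from 0.577 to 0.757, lowest on the adjacent normal array of riboflavin-normal replicate 1 and highest on that of riboflavin-normal replicate 2. Squamous genes had a median level per array of 7.21 to 10.3 and skeletal muscle markers one of 9.81 to 13.4. Being levels of different probe sets, these do not measure the share of either tissue. In such bulk tissue fewer cells of a type and less RNA per cell cannot be told apart. By limma, a linear model that pools the spread across genes, 0 of 22093 genes (0%) passed an adjusted p under 0.05 in any of 6 comparisons, and so 0 of the 4 members. Without adjustment, 806 genes had a p under 0.05 for neoplasia on the riboflavin-normal diet, 425 on the deficient diet, 485 over both diets and 760 for the difference between diets, and 1122 and 524 for diet within neoplasia and within adjacent normal tissue.

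Csta encodes cystatin A itself. In riboflavin-normal rats its log2 level was 9.64 and 12.91 in adjacent normal tissue and 15.67 and 15.36 in neoplasia (replicates 1 and 2). In riboflavin-deficient rats it was 14.35 and 13.07 in adjacent normal tissue and 11.12 and 12.86 in neoplasia. The riboflavin-normal neoplasia arrays were thus the highest of all 8, and that diet's adjacent normal replicate 1 was the lowest. Within rats, neoplasia was 65.3-fold and 5.47-fold above adjacent normal tissue on the normal diet, and 9.38-fold and 1.15-fold below it on the deficient diet. The mean log2 difference was 4.24 (SE 1.09, n = 2 pairs) on the normal diet, which was the largest upward value among the 22093 genes, and -1.72 (SE 1.09, n = 2 pairs) on the deficient diet. The last of these means came almost wholly from replicate 1, whose pair differed by -3.23 against -0.21 in replicate 2. On the normal diet the pairs differed by 6.03 and 2.45, and the low adjacent normal array of replicate 1 had the lowest control separation (0.577). Csta was chosen with this contrast known, so nothing is read from its rank. Every SE given for a fitted difference is that of limma. It pools the spread over both diets and moderates it across genes. It is therefore equal on both diets and is not the spread of the 2 pairs named.

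**Figure D2:**
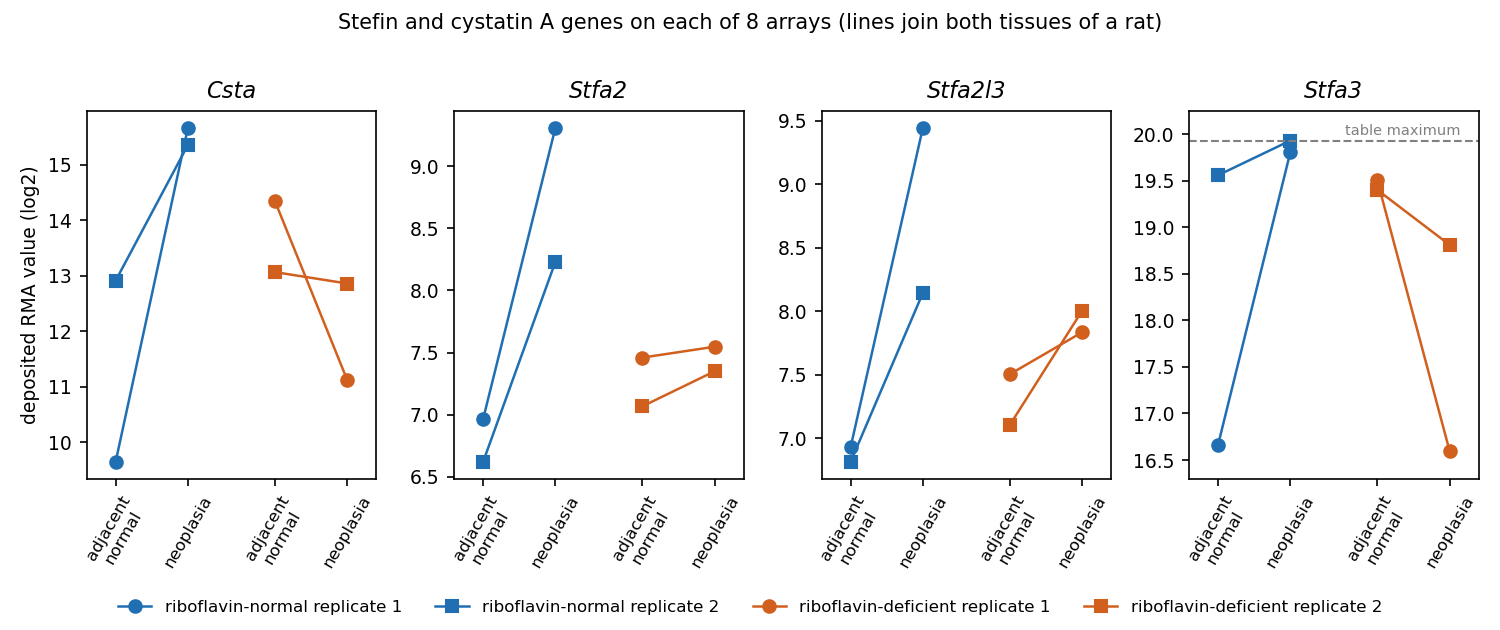
Deposited log2 value (vertical axis, RMA) of each member in adjacent normal tissue and neoplasia, with a line joining both tissues of a rat (blue, riboflavin-normal; orange, riboflavin-deficient; circle, replicate 1; square, replicate 2; the vertical axes differ and do not start at 0). All 4 genes run upward along both blue lines, whereas along the orange lines Csta and Stfa3 run downward and Stfa2 and Stfa2l3 slightly upward.

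Stfa3, a stefin A gene at the other end of the cluster, ran near the ceiling. Its log2 level in riboflavin-normal rats was 16.66 and 19.56 in adjacent normal tissue and 19.81 and 19.93 in neoplasia, the last being at the ceiling. In riboflavin-deficient rats it was 19.51 and 19.40 in adjacent normal tissue and 16.60 and 18.81 in neoplasia. The 2 low arrays, adjacent normal replicate 1 on the normal diet and neoplasia replicate 1 on the deficient diet, stood below all others, of which the lowest was 18.81. Neoplasia was 8.86-fold higher than adjacent normal tissue in riboflavin-normal replicate 1 and at least 1.29-fold higher in replicate 2. On the deficient diet it was 7.50-fold lower in replicate 1 and 1.51-fold lower in replicate 2. The mean log2 difference was 1.76 (SE 0.85, n = 2 pairs, with 1 array at the ceiling) on the normal diet and -1.75 (SE 0.85, n = 2 pairs) on the deficient diet. With quantile normalisation the first of these was 0.90.

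Stfa2 and Stfa2l3 differed from Csta and Stfa3 in sign on the deficient diet. The log2 level of Stfa2 in riboflavin-normal rats was 6.97 and 6.62 in adjacent normal tissue and 9.31 and 8.23 in neoplasia. In riboflavin-deficient rats it was 7.46 and 7.07 in adjacent normal tissue and 7.55 and 7.35 in neoplasia. The riboflavin-normal neoplasia arrays were the highest, and the 6 other arrays lay between 6.62 and 7.55. Neoplasia was 5.08-fold and 3.05-fold above adjacent normal tissue in the riboflavin-normal pairs, and 1.06-fold and 1.22-fold above it in the riboflavin-deficient pairs. As log2 means these were 1.98 (SE 0.23, n = 2 pairs) and 0.18 (SE 0.23, n = 2 pairs). With quantile normalisation the second was 0.41.

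For Stfa2l3 the log2 level in riboflavin-normal rats was 6.93 and 6.81 in adjacent normal tissue and 9.45 and 8.15 in neoplasia. In riboflavin-deficient rats it was 7.50 and 7.10 in adjacent normal tissue and 7.83 and 8.004 in neoplasia. Its neoplasia arrays lay above the adjacent normal arrays within each diet. The share of all genes with this order is not given here, so nothing is read from it. Within rats neoplasia was higher by 5.73-fold and 2.52-fold on the normal diet and 1.26-fold and 1.87-fold on the deficient diet. The log2 means were 1.93 (SE 0.34, n = 2 pairs) and 0.62 (SE 0.34, n = 2 pairs). Over the 8 arrays the values of Stfa2 and Stfa2l3 correlated at r = 0.96, those of Csta and Stfa3 at r = 0.90, and those across these pairs at 0.30 to 0.68. These coefficients are given as a description, since the arrays share rats and signal quality and both Stfa2 probe sets may read the same transcripts.

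Read as counts, all 4 members were higher in neoplasia in both riboflavin-normal pairs, as were 21.0% of all genes, and 3 of them by at least 1 log2 unit in both, as were 0.321% of all genes. On the deficient diet 2 members, Csta and Stfa3, were lower in both pairs, as were 24.6% of all genes. In all 4 pairs 2 members, Stfa2 and Stfa2l3, were higher, as were 4.10% of all genes. The opposite sign on the 2 diets, up in both riboflavin-normal and down in both deficient pairs, was shown by 2 members and by 6.33% of all genes. These same contrasts had informed the choice of members, so nothing is read from the shares. The median log2 difference of the 4 members was 1.95 on the normal diet, -0.77 on the deficient diet and 1.17 over both, against -0.0002, -0.0037 and 0.0015 over all genes. Over the upper 50 percent of genes by mean level, to which the members belong, the medians were 0.04, -0.05 and 0.003.

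Other type 1 cystatins of the same locus and Cstb are set beside the members; 4 of 7 listed were measured besides Csta3, and 0 passed on either diet. Csta3, the neighbour of Stfa3, lay outside the rule for named genes and was picked after its values were seen. Its within-rat log2 differences were 3.51 and 1.97 on the normal diet and -1.31 and 0.67 on the deficient diet, from levels of 6.95 to 11.43. Stfa2l1, Stfa2l2 and Stfa3l1, which lie between Csta3 and Csta, had riboflavin-normal differences of -0.73, -0.09 and -0.09 in replicate 1 and of 1.64, 0.99 and 2.16 in replicate 2. On the deficient diet these 3 genes ranged from -0.25 to 0.43. Cstb encodes cystatin B, the widely expressed stefin, and lies on chromosome 20. Its differences were 0.997, 0.50, -1.02 and 0.35 (riboflavin-normal replicates 1 and 2, then riboflavin-deficient replicates 1 and 2). Csta3 and Cstb were thus higher in both riboflavin-normal pairs, whereas the signs of the other 3 cluster genes differed between the 2 rats.

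**Figure D3:**
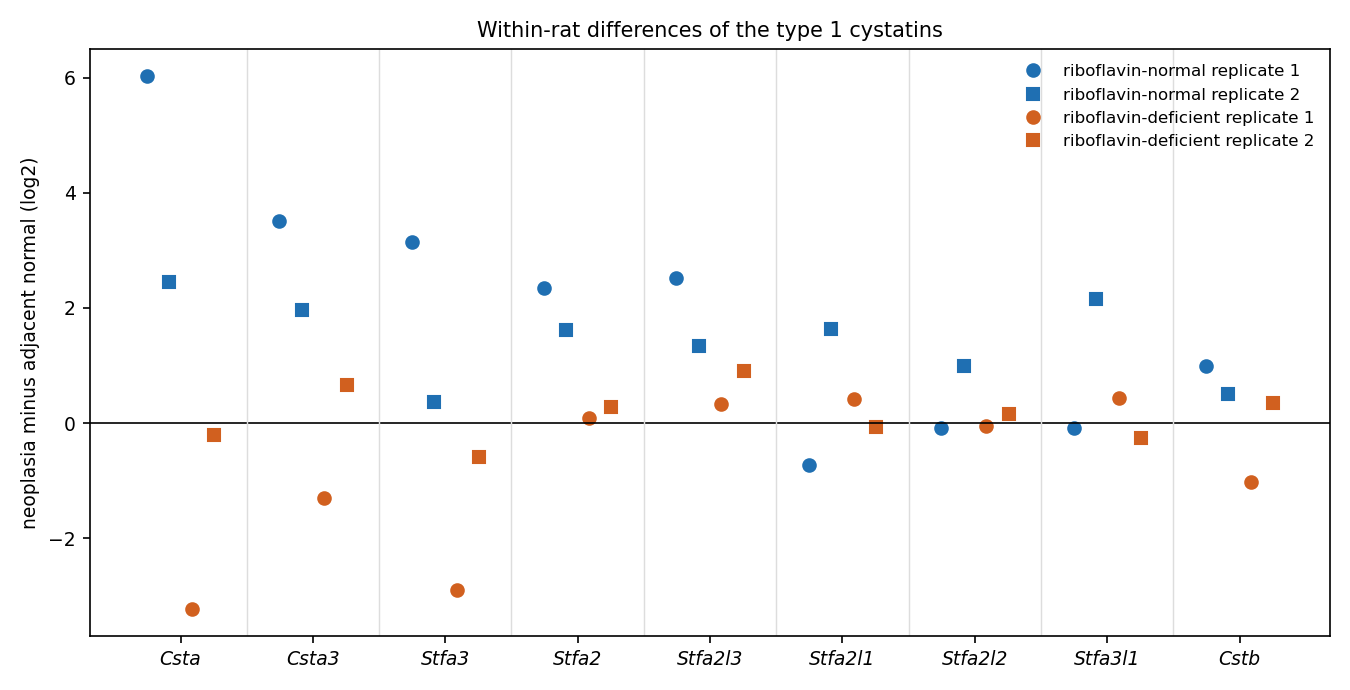
Neoplasia minus adjacent normal tissue within each rat (vertical axis, log2; each point is 1 pair, colours and shapes by diet and replicate) for the 4 members, Csta3 and the 4 other type 1 cystatins measured. Csta spans 6.03 to -3.23, and the blue points of Csta, Csta3, Stfa3, Stfa2, Stfa2l3 and Cstb all lie above 0.

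The comparison of diets within a tissue uses the same 8 arrays, between rats, and so is not independent of the paired values. In neoplasia all 4 members were lower on the deficient diet without overlap of the groups, as were 23.2% of all genes. The log2 differences, deficient minus normal, were -3.53 for Csta (SE 1.12), -2.17 for Stfa3 (SE 1.04), -1.32 for Stfa2 (SE 0.36) and -0.88 for Stfa2l3 (SE 0.41; 2 arrays per group). Quantile normalisation brought them to -2.29, -1.58, -0.71 and -0.22. The median over the 4 members was -1.74, against 0.02 over all genes (11951 higher, 10140 lower). The members belong to the upper 50 percent of genes by mean level. In that part the median was -0.12, with 3781 genes higher and 7264 lower, so a fall was common at higher signal. Other lists differed between the diets in neoplasia as well, with medians of -1.05 for 39 squamous genes (4 higher, 34 lower), -1.18 for 13 basal keratinocyte markers (1 higher, 12 lower) and -1.09 for 36 ribosomal protein genes (0 higher, 36 lower). Skeletal muscle (3 higher, 16 lower, median -0.62) and matrix markers (1 higher, 13 lower, median -0.29) were mostly lower too. Neutrophil markers ran the other way, with 21 higher and 1 lower (median 0.15), and 0 genes of these lists passed. Of these 22 markers 17 had a mean below the table median of 4.98, so this is mostly a difference at low signal. The control separation of the neoplasia arrays was 0.696 and 0.694 on the normal diet and 0.617 and 0.600 on the deficient diet. The SD over all genes was 1.59 and 1.62 on the former arrays and 1.39 and 1.37 on the latter. The part of these differences in the member values was not tested. In adjacent normal tissue 3 members, Csta, Stfa2 and Stfa2l3, were higher on the deficient diet without overlap, as were 11.8% of all genes. The differences were 2.43 for Csta (SE 1.12), 1.34 for Stfa3 (SE 1.04), 0.47 for Stfa2 (SE 0.36) and 0.43 for Stfa2l3 (SE 0.41). Without riboflavin-normal replicate 1 they were 0.80, -0.11, 0.64 and 0.49, so the sign for Stfa3 rested on that rat.

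**Figure D4:**
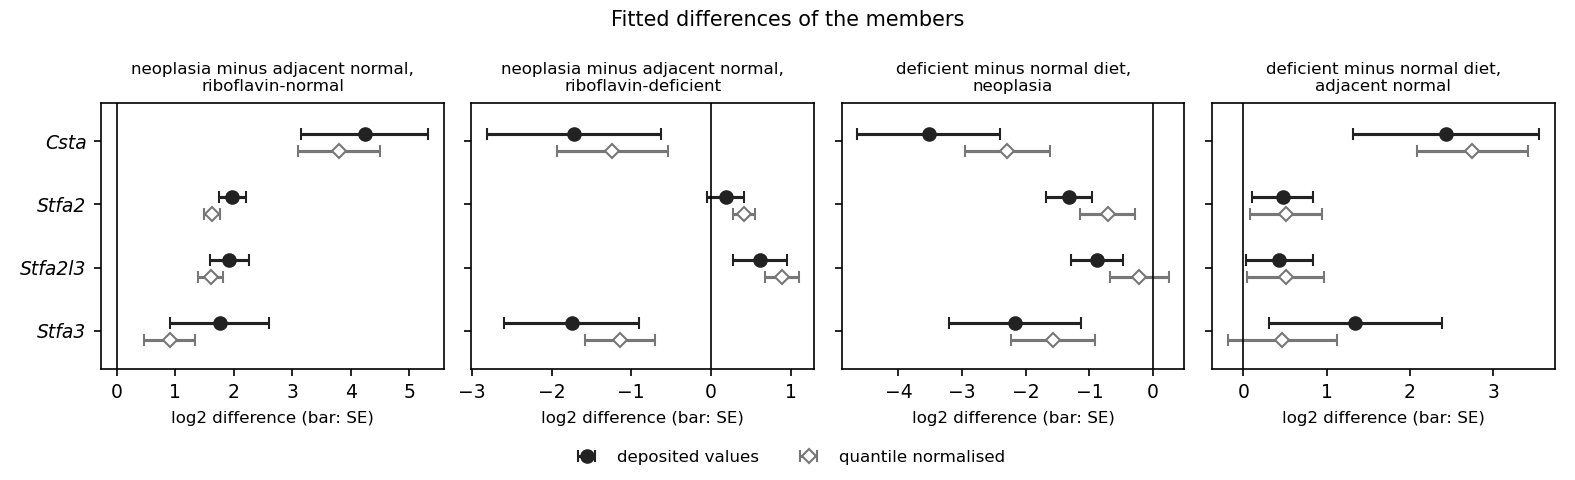
Fitted log2 difference of each member (horizontal axis, bar SE) for neoplasia minus adjacent normal tissue on each diet and for deficient minus normal diet in each tissue, from the deposited values (filled) and after quantile normalisation (open). Csta moves most in every panel but the deficient pairs, where Stfa3 is at -1.75 and Csta at -1.72, and the open point of Stfa2l3 for diet within neoplasia is at -0.22.

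The targets of the stefins showed no common direction in neoplasia. All 11 listed cysteine cathepsins and legumain, an asparaginyl protease inhibited by some secreted cystatins, were measured. On the normal diet 6 were higher and 5 lower in neoplasia (median 0.02), and on the deficient diet 5 were higher and 6 lower (median -0.02), with 0 passing. Ctsb, the abundant lysosomal cathepsin B, had riboflavin-normal log2 levels of 7.63 and 10.43 in adjacent tissue and 9.32 and 9.09 in neoplasia, and of 9.37 and 8.55 against 8.09 and 8.23 on the deficient diet. Its groups overlapped on the normal diet, whereas on the deficient diet both neoplasia arrays were lower (mean difference -0.80, SE 0.75). The share of all genes with this order is not given here, so nothing is read from it. Ctsl, which encodes cathepsin L, differed by 0.77 and -1.15 in the riboflavin-normal and by -0.60 and 0.64 in the riboflavin-deficient pairs. Ctsc encodes cathepsin C, a dipeptidyl peptidase that activates granule serine proteases. It was higher by 1.77 and 0.67 in the riboflavin-normal pairs (mean 1.22, SE 0.30) and differed by -0.43 and -0.10 in the riboflavin-deficient pairs. Among the 11, Ctsw, Ctsf, Ctsz and Ctso had mean levels below the table median, where small differences are differences at low signal.

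Of 19 listed secreted cystatins, kininogens and fetuins 15 were measured, 9 of them with a mean below the table median. On the normal diet 6 were higher and 9 lower in neoplasia (median -0.06), on the deficient diet 9 were higher and 6 lower (median 0.05), and 0 passed. Fetub, which encodes fetuin-B, a cystatin-domain inhibitor of metalloproteases, was among the 5 genes whose profile over the 8 arrays was most like that of Csta (r = 0.96) and of Stfa3 (r = 0.94). Its pairs differed by 3.11, 0.44, -1.66 and 0.32. Cst6 encodes cystatin E/M, which in skin controls legumain and cathepsin L during cornification. Its riboflavin-normal levels were 8.27 and 11.41 in adjacent tissue and 11.18 and 10.68 in neoplasia, so its pairs had opposite signs, and on the deficient diet they were 11.34 and 9.61 against 9.24 and 10.65. Cst3, the ubiquitous cystatin C, kept to 7.72 to 8.54 on all arrays.

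Profiles most like those of the members were ranked by Pearson r over the 8 arrays among 2478 other genes with an SD of at least 0.5. For Csta these were Lypd5 (r = 0.98), the pseudogene Ncl-ps1 (r = 0.98), the serpin gene Serpinb12 (r = 0.97), the desmosomal cadherin gene Dsg1 (r = 0.97) and Fetub. For Stfa3 they were the AP-1 subunit gene Jun (r = 0.95), Serpinb12 (r = 0.94), Fetub, Fads2b (r = 0.93) and the cornified envelope gene Cnfn (r = 0.92). For Stfa2, after Stfa2l3, they were the focal adhesion gene Tns4 (r = 0.94), LOC102553726 (r = 0.92), Eno1-ps1 (r = 0.92) and Iqcml1 (r = 0.90). For Stfa2l3, after Stfa2, they were the monocyte chemokine gene Ccl2 (r = 0.93), Mir1298 (r = 0.92), LOC102553726 (r = 0.92) and the epithelial cytokine gene Il36g (r = 0.91). These are descriptions over 8 arrays from 4 rats that share signal quality.

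The cornified envelope and suprabasal squamous genes, the setting in which cystatin A is made, had the sign of Csta in 3 of 4 rats. Of 41 listed, 39 were measured, and the median within-rat difference was 2.75 and 0.13 on the normal diet and -1.27 and 0.15 on the deficient diet, where Csta gave 6.03, 2.45, -3.23 and -0.21. In the mean of the riboflavin-normal pairs 37 were higher and 2 lower, and on the deficient diet 8 were higher and 30 lower, with 0 passing. By rat, 38 and 24 of the 39 were higher on the normal diet (replicates 1 and 2) and 3 and 27 on the deficient diet. Sprr1b, a cross-linked envelope precursor, had the signs of Csta in all 4 pairs, with 5.53, 2.90, -2.05 and -1.52. Most of the list was higher in riboflavin-deficient replicate 2, unlike Csta and Sprr1b. In riboflavin-normal replicate 2 Csta, Stfa2 and Stfa2l3 were thus higher by 1.33 to 2.45 and Stfa3, at the ceiling, by at least 0.37, while the squamous median differed by 0.13. The control separation in adjacent normal tissue and neoplasia was 0.577 and 0.696 in riboflavin-normal replicate 1 and 0.757 and 0.694 in replicate 2. In the riboflavin-deficient rats it was 0.659 and 0.617, and 0.598 and 0.600. The part of signal quality and of the share of epithelium in the member values was not tested.

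Other protease inhibitors of squamous epithelium, among them clade B serpins that act inside cells as the stefins do, were measured for 23 of 25 listed. In riboflavin-normal neoplasia 17 were higher and 6 lower (median 0.25), on the deficient diet 10 were higher and 13 lower (median -0.12), and 0 passed. Serpinb5, which encodes maspin, gave 4.07, 2.84, -2.07 and 0.33 in the 4 pairs. Serpinb3, an inhibitor that in human blocks papain-like cathepsins as well, gave 1.08, 2.00, -0.52 and -0.17. Serpinb3 thus had the signs of Csta on both diets.

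Since mouse neutrophils make stefin A proteins, myeloid markers are set beside the members. Of 22 neutrophil markers measured, 17 had a mean below the table median of 4.98, and the list's median per array stayed within 4.33 to 4.68. Its summed log2 level was 95.86 to 103.16 in adjacent tissue and 101.69 to 102.2 in neoplasia on the normal diet, and 99.03 to 100.93 and 104.46 to 106.99 on the deficient diet. The myeloperoxidase gene Mpo was at 3.92 to 4.37 and the elastase gene Elane at 4.89 to 5.25 on all arrays. S100a8 and S100a9 encode subunits of calprotectin, which squamous epithelium makes as well. They were higher in neoplasia in all 4 pairs, by 1.02 to 3.17 and by 0.64 to 1.47. On the deficient diet the next largest mean differences were 0.43 for Camp, 0.40 for Cxcr1, 0.37 for Ngp and 0.36 for Fcgr3a. On the normal diet these genes gave -0.12, 0.12, 0.02 and -0.20. In neoplasia of the deficient diet 20 of the 22 markers were higher and 2 lower (median 0.07), on the normal diet 10 were higher and 12 lower (median -0.01), and 0 passed. The median within-rat shift of the neutrophil list was -0.24 and 0.10 on the normal and 0.15 and 0.08 on the deficient diet. For 18 macrophage and dendritic cell markers it was -0.05, -0.26, 0.07 and -0.03, and for 10 mast cell and basophil markers -0.29, 0.02, 0.08 and 0.13. Of these, 9 of the 18 and 6 of the 10 had a mean below the table median, at low signal. For 13 basal keratinocyte markers the median shift was 1.03, -0.06, -0.31 and -0.03.

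**Figure D5:**
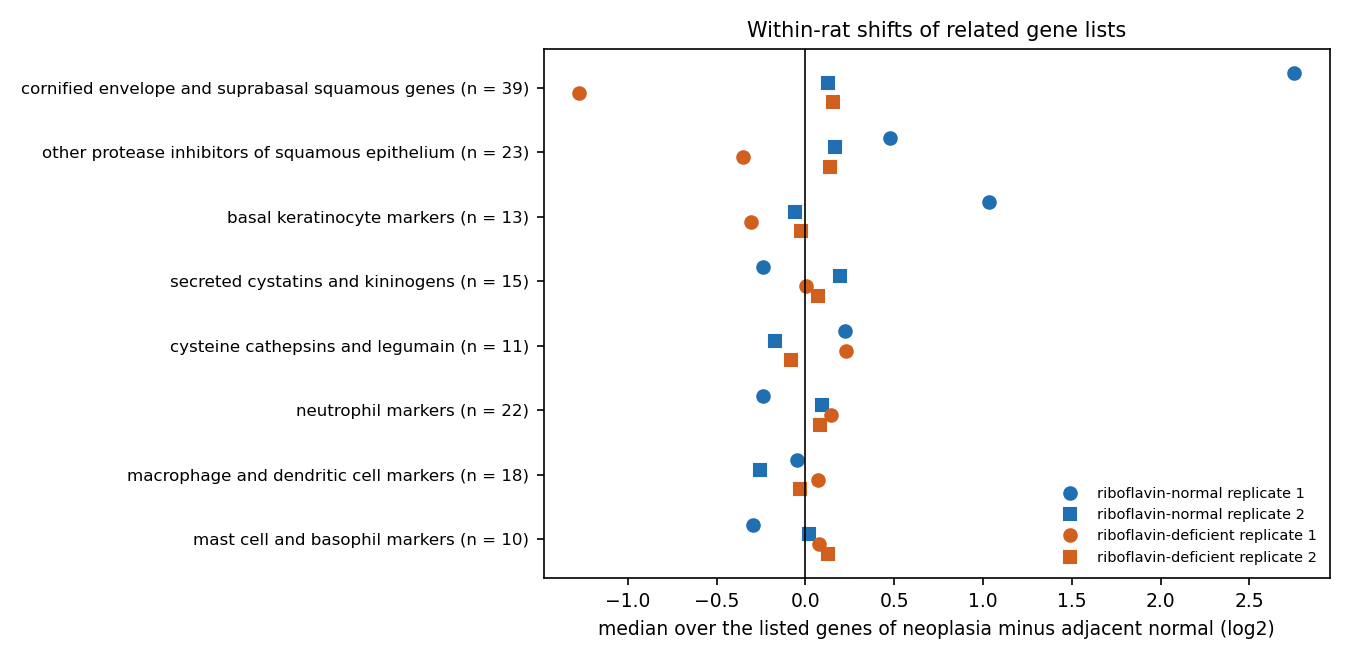
Median within-rat difference, neoplasia minus adjacent normal (horizontal axis, log2), of each related gene list (n, genes measured), with 1 point per rat. The squamous list runs from -1.27 to 2.75, whereas the cathepsin, secreted cystatin and 3 myeloid lists stay between -0.29 and 0.23 in all 4 rats. Many genes of these lists have a mean below the table median, where a shift is one at low signal. They are 4 of 11 cathepsin, 9 of 15 secreted cystatin, 17 of 22 neutrophil, 9 of 18 macrophage and 6 of 10 mast cell genes. In the squamous list they are 3 of 39.

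The muscle, stroma and ribosomal lists varied between rats. Their within-rat medians in the same order were 0.00, -2.02, -1.68 and 0.25 for 19 skeletal muscle markers, 0.10, -2.43, -0.34 and 0.11 for 10 smooth muscle markers, 0.33, -1.54, 0.04 and -0.08 for 14 matrix and fibroblast markers, and 1.27, -0.46, -0.49 and -0.08 for 36 ribosomal protein genes.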

How the data were processed

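Total RNA of 8 fixed, paraffin-embedded rat oesophagus samples was amplified, biotin-labelled and hybridised to Affymetrix arrays, per the labels' protocols. The authors deposited log2 values, 1 per probe set, for which Expression Console (Affymetrix) and RMA were used per the submitters' processing notes; versions and genome build are not given in the sources used here. The table held 70580 probe sets, of which 23446 had 1 gene symbol in the platform annotation, 505 several and 46629 none. Symbols were updated through Entrez IDs (22077 matched, 1 changed), and for 1182 genes with several probe sets the one of highest mean was kept, leaving 22093 genes.

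The members and lists were chosen with earlier results of these data known. Groups and replicates came from the titles, and rats from the animal code shared by both tissues in the descriptions; deviations of a rat's 2 arrays correlated at 0.19 and 0.16 within the diets. Differences were fitted over all genes with limma 3.58.1 in R 4.3.3 (lmFit, eBayes, Benjamini-Hochberg adjustment). Tissue comparisons had the animal as a block, with neoplasia fitted separately on each diet (2 residual degrees of freedom), the diet comparisons a mean per group (4 residual degrees of freedom). The fit was run on simulated data to check the code only. The simulated noise was independent, smaller than the residual SD of these arrays and without rat effects. It therefore does not show how the fit performs on these arrays. Named genes were the members, the other Stfa genes and Cstb, up to 4 genes per list of lowest unadjusted p for the mean neoplasia effect and up to 2 per diet, and the 5 profiles most like each member; a selection is printed. Csta3, Ctsb, Ctsl, Ctsz, Cst3, Cst6, Mpo, Elane, Camp and Fcgr3a were named outside this rule, for their roles or values and after their values were seen. The number of arrays limits the precision. Promoter windows were compared by end-free pairwise alignment, in Python 3.11.15. Alternatives were no animal block, quantile, cyclic loess and median scaling, the upper 50 percent of genes, the mean of probe sets, a trended robust prior and leaving out each rat.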

Additional observations from a re-analysis of the deposited data

Results flagged for a closer look

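For Csta and Stfa3 both riboflavin-normal rats had more signal in neoplasia than in adjacent normal tissue and both riboflavin-deficient rats had less. The difference between diets in the neoplasia effect, deficient minus normal, was -5.96 for Csta (SE 1.54) and -3.51 for Stfa3 (SE 1.198) on the log2 scale, from 2 pairs per diet. As these genes were chosen with this contrast known, the difference was not tested as a finding, and 1399 of 22093 genes showed the same order of signs. The Stfa3 value includes a neoplasia array at the ceiling of the table.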

How the results depend on the processing

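With limma 0 genes passed in each comparison under every alternative run, the lowest adjusted p over all of them being 0.0768. The members' values were recomputed 256 times, and 244 stayed within 1 replicate SD of the first value with the same sign. This count is no measure of robustness, since most of these values could not have moved that far. With 2 rats per diet, leaving out 1 rat moves a difference by less than the replicate SD, though its sign can turn. Dropping the animal block, averaging probe sets, the trended robust prior and keeping only the upper genes leave a member's difference unchanged. The sign turned for Stfa3 averaged over both diets, a value of 0.01 that was -0.12 with quantile normalisation, -0.16 with cyclic loess, -0.0006 with arrays centred on their median and -0.69 to 0.70 without each rat in turn. It also turned for Stfa3 between diets in adjacent normal tissue, at -0.11 to 2.79 without each rat in turn. Its cause was not tested. Quantile normalisation moved Csta in neoplasia between diets from -3.53 to -2.29 and Stfa2l3 from -0.88 to -0.22. Without the animal block, a replicate block given by the labels, 0 genes passed, and 645 against 806 lay at an unadjusted p under 0.05 in the riboflavin-normal pairs. Leaving out each rat gave 0 to 0 genes passing and 3 to 4 members higher for the mean of both diets. The 2 rats per diet limit the precision, and a pair with an array at the ceiling gives only a bound.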
